A study of Mus musculus with 5 samples.

Results

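BMP, activin and TGF-beta signalling genes were examined in dorsal pancreatic buds of mouse embryos with and without Ptf1a, a transcription factor of the basic helix-loop-helix family on which pancreas formation depends. The set was a list of 43 genes: 11 ligands, 10 receptors, 7 Smads, 8 antagonists and other modulators, and 7 target genes. All 43 had at least 1 probe set annotated to that gene alone, 96 probe sets in all, out of 18193 genes measured in this way. Where a gene had several probe sets, the 1 with the highest mean log2 signal over the arrays stood for it, a choice that did not use genotype.

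Embryos of the C57BL/6J strain were collected at E10.5 from matings between Ptf1a heterozygotes. The groups were Ptf1a heterozygotes (2 arrays) and Ptf1a null mutants (3 arrays), so every embryo carried at least 1 mutant Ptf1a allele and no array represented the wild type. Each array received RNA pooled from 3 buds, freed of mesenchyme by dissection and put through a pair of linear amplification rounds before hybridisation to an Affymetrix mouse GeneChip. Neither the extent of the Ptf1a mutation nor the litters behind the pools are given in the labels, so p-values measure only the spread between these pools, which may be partly technical.

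Ligands of this family bind paired type I and type II serine/threonine kinase receptors, which phosphorylate receptor-regulated Smads. BMP ligands act through Smad1 and Smad5, activins and TGF-betas act through Smad2 and Smad3, and both branches share Smad4. Secreted proteins such as noggin, chordin, gremlin and follistatin bind ligands and keep them from their receptors. Around the early pancreas, activin from the notochord and BMP and TGF-beta ligands of the surrounding mesenchyme are known regulators of bud growth and endocrine differentiation. The Id genes, which encode inhibitors of basic helix-loop-helix factors, are classical BMP targets.

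On a normalised log2 scale the background level, set from 27 Bacillus subtilis control probe sets, lay between 3.03 and 3.29 on the 5 arrays. Median linear signal was 13.7 to 17.5, and correlations between arrays were 0.838 to 0.862. The Ptf1a probe set 1419424_at read 7.10 and 7.33 in heterozygotes, against 5.21, 6.07 and 5.00 on the null arrays. Every null array was lower, by 1.79 in the mean (SE 0.47), without passing adjustment over all probe sets (limma adjusted p = 0.651). All 12 measured markers of bud epithelium, among them Pdx1, Sox9 and Epcam, were above background on all 5 arrays. Signal of a probe set depends on its probes as well as on RNA amount, so the order of 2 genes by signal is not their order by RNA amount. In pooled buds, fewer cells of a type and less RNA per cell cannot be told apart.

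None of the 43 genes passed the test between genotypes. The untrended limma fit called 0 members at an adjusted p under 0.05, and it called 0.0% of all 45037 probe sets, with a lowest adjusted p of 0.363 anywhere in the table. The trended fit, in which the prior variance follows signal level, also called 0 members and called 0.0178% of all probe sets. At an unadjusted p under 0.05 the untrended fit held 0 members, where 4.47% of all genes were below that value. The trended fit held 3 members (6.98%), Acvr1, Bmp1 and Fst, also against 4.47% of all genes.

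In direction the members were evenly divided. In the nulls 20 were higher and 23 were lower, that is 46.5% higher against 49.1% of all genes. The median log2 change was -0.014, and over all genes it was -0.012. The direction depends on how the arrays are scaled: 30.2% of members were higher with median centring and 27.9% without normalisation, against 42.6% and 39.5% of all genes. The 8 members that changed sign with scaling were Acvr1b, Acvr2b, Bmpr2, Tgfbr1, Tgfbr3, Smad4, Id2 and Id4, each with a change of at most 0.12 in size.

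**Figure D1:**
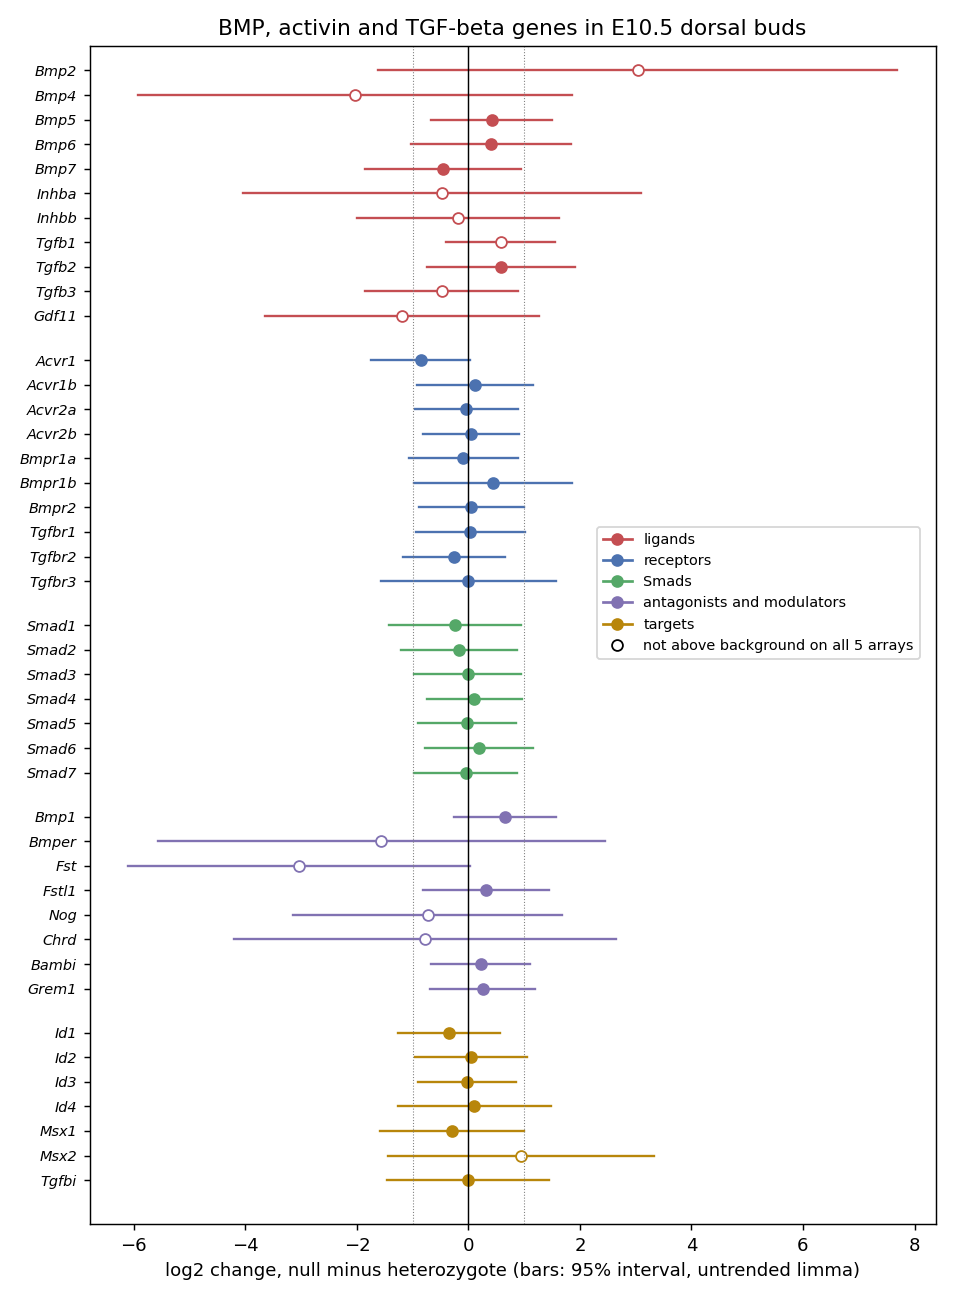
The log2 change of each of the 43 genes, null minus heterozygote, is plotted by role, with bars for the 95% interval of the untrended limma fit. Filled points are probe sets above background on all 5 arrays and open points are not. All 43 intervals include 0, and the bars of Bmp2 and Bmper, both open, are the longest. Open points of genes below background on every array of a genotype have no measured size.

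The roles differed in the precision of the measurement. All 10 receptors and all 7 Smads were above background on all 5 arrays, and so were 6 of 7 targets, 4 of 8 modulators and 4 of 11 ligands. The median standard deviation between arrays of a genotype was 0.24 for receptors and 0.24 for Smads. It was 0.53 for targets, 0.63 for ligands and 0.82 for modulators. The median absolute change was 0.072 for receptors, 0.10 for Smads, 0.11 for targets, 0.48 for ligands and 0.70 for modulators. With values under background raised to it, the last became 0.29 and that of ligands 0.45. Among members above background on all 5 arrays the median absolute change was 0.44 for ligands and 0.29 for modulators. It was 0.076 for targets, 0.072 for receptors, 0.10 for Smads and 0.23 over all genes of that kind. All 5 members with a fitted change over 1 in size were among the 12 that were not above background on every array, and with raised values 1 member, Bmp4, remained over 1.

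The size of change that the arrays leave possible at the representative probe sets therefore differs between roles. In the trended fit the unadjusted 95% interval lay within a doubling or a halving of signal for 7 of 10 receptors, 6 of 7 Smads, 3 of 7 targets, 2 of 8 modulators and 0 of 11 ligands. In the wider intervals of the untrended fit this held for 3 receptors, 4 Smads, 1 target, 0 modulators and 0 ligands. For some ligands the trended interval excluded a change of that size in 1 direction: it ran from -0.26 to 1.43 for Tgfb2, from -0.52 to 1.36 for Bmp5 and from -1.34 to 0.43 for Bmp7.

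Among target genes, the sequence before the start site was examined for the GC-rich element GGCGCC, through which BMP-activated Smads are known to bind. RefSeq promoters (build GRCm38.p6) were found for 31 members, and the 250 bases before each start were searched. The windows below are shown because they belong to genes that serve as readouts of the pathway. Each is written 5′ to 3′ on the gene's own strand, with the match in capitals.
Id2, chr12:25096288-25096342, minus strand: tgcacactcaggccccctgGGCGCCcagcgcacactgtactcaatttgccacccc
Id4, chr13:48260938-48261003, plus strand: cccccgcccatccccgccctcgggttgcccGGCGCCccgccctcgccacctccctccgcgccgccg
Tgfbi, chr13:56609479-56609544, plus strand: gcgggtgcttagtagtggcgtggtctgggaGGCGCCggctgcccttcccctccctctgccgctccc

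The element begins 231 bases before the start of Id2, 148 before that of Id4 and 77 before that of Tgfbi. It reads the same on both strands, and it occurred in 9 of 31 members with a promoter (29.0%) and in 10.8% of all genes with a promoter. Besides these targets the 9 were Bmpr1a, Bmpr2, Chrd, Grem1, Smad5 and Tgfbr1. The other targets, Id1, Id3, Msx1 and Msx2, had no match or no promoter in the search. The shares were not adjusted for the base composition of promoters. A match is a match of letters only, and no binding was measured in these buds.

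At their representative probe sets, Id2 and Id3, inhibitors of basic helix-loop-helix factors, differed by less than the spread between arrays. Id2 read 8.70 and 8.97 in heterozygotes and 9.23, 8.83 and 8.57 in nulls, a difference of 0.04 (SE 0.39, limma adjusted p = 0.999) whose sign turns with median centring or without normalisation. The other Id2 probe sets differed by 0.18 and -1.41, the latter above background on 3 arrays, and the mean of all 3 differed by -0.40. Id3 read 8.62 and 8.41 against 8.40, 8.52 and 8.55, a difference of -0.02 (SE 0.34). The groups overlapped for both genes. The trended interval was -0.46 to 0.55 for Id2 and -0.50 to 0.45 for Id3.

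Id1 was the target whose groups did not overlap. It read 6.84 and 6.46 in heterozygotes and 6.38, 6.36 and 6.17 in nulls. The mean was 6.65 ± 0.27 (SD, n = 2) against 6.30 ± 0.12 (SD, n = 3), a difference of -0.35 (SE 0.35) with a limma adjusted p of 0.998. The gap between the lowest heterozygote and the highest null was smaller than the gap between the heterozygotes. Id4, whose window is printed above, differed by 0.11 at its representative probe set, with a trended interval of -0.85 to 1.06. All 3 Id4 probe sets were higher in nulls, but the others were not above background on every array. Msx1, a homeobox target of BMP, differed by -0.29, and Msx2 was above background on 1 array.

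Tgfbi, which encodes a matrix protein induced by TGF-beta, varied more between pools than between genotypes. It was singled out after its values were seen. Its representative probe set read 8.74 and 7.57 in heterozygotes and 8.05, 7.67 and 8.71 in nulls, a difference of -0.01 (SE 0.56). All 4 Tgfbi probe sets had their 2 highest values on heterozygote 1 and null 3 and their 2 lowest on heterozygote 2 and null 2. Their changes were -0.01, 0.18, -0.23 and 0.29, so the order of the pools was shared by the probe sets and the direction between genotypes was not. Heterozygote 2 and null 2 were also the arrays with the lowest median linear signal (14.4 and 13.7). A link between this and the order was not tested.

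Representative probe sets of receptors, with those of the Smads, gave the most even signal between arrays. Tgfbr1, the type I receptor for TGF-beta, read 9.71 and 10.23 in heterozygotes and 10.20, 9.99 and 9.84 in nulls, a difference of 0.03 (SE 0.38). Bmpr2, the type II BMP receptor, read 9.35 and 9.63 against 9.31, 9.77 and 9.56, a difference of 0.06 (SE 0.36). Both differences turn negative with median centring or without normalisation, and the groups overlap for both genes. At the dimmer Bmpr2 probe set 1419616_at every null was lower, by 1.14 in the mean (SE 0.56, limma adjusted p = 0.974). The remaining Bmpr2 probe set was higher in nulls on average but was not above background on every array. The mean of all Bmpr2 probe sets differed by 0.24. The other Tgfbr1 probe sets differed by 0.52 and 0.35 with overlapping groups.

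The activin type II receptors Acvr2a and Acvr2b differed by -0.04 and 0.04 at their representative probe sets, and the BMP type I receptor Bmpr1a by -0.09. Other probe sets above background on all arrays gave other values. Bmpr1a 1425493_at read 7.76 and 7.76 in heterozygotes and 8.75, 8.53 and 8.10 in nulls, a difference of 0.70 (SE 0.38, limma adjusted p = 0.983 untrended and 0.976 trended). Every null was also higher at Bmpr1a 1425494_s_at, by 0.35, and at Acvr2a 1451004_at, by 0.52. Bmpr1a 1425491_at, with overlapping groups, differed by -0.17. All 3 Acvr2b probe sets were higher in nulls on average, 2 of them above background on all arrays. With median centring 2 stayed higher, and without normalisation 1 did.

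Acvr1, a type I receptor that binds BMPs, was the receptor with the largest difference. At 1448460_at it read 7.10 and 7.36 in heterozygotes and 6.22, 6.43 and 6.46 in nulls. The mean was 7.23 ± 0.18 (SD, n = 2) against 6.37 ± 0.13 (SD, n = 3), a difference of -0.86 (SE 0.35, limma adjusted p = 0.925 untrended and 0.976 trended). All nulls were below both heterozygotes, but the other probe sets did not repeat this. At 1416786_at the values were 4.37 and 5.04 against 3.61, 4.99 and 4.86, with overlapping groups and a difference of -0.22. At 1416787_at they were 3.00 and 2.60 against 3.53, 4.16 and 4.34, with both heterozygotes below background and the nulls at least 1.79-fold higher.

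Tgfbr2, the type II TGF-beta receptor, read 6.85 and 6.87 in heterozygotes and 6.34, 6.79 and 6.67 in nulls. The groups did not overlap, and the difference was -0.26 (SE 0.36, limma adjusted p = 0.999). The dimmer Tgfbr2 probe set 1425444_a_at went the other way, with 2.28 and 3.67 in heterozygotes and 3.72, 3.94 and 4.16 in nulls, a difference of 0.96 (SE 0.54). Heterozygote 1 was below background at this probe set, which limits the size given. Its groups did not overlap either, but heterozygote 2 and the lowest null were close (3.67 and 3.72). The direction of Tgfbr2 therefore depended on the probe set. Probe set 1422019_at was above background on 1 array. Tgfbr3, the coreceptor betaglycan, differed by 0.002 at its representative probe set with overlapping groups. At 1425620_at it was lower in every null, by 1.49 (SE 0.53, limma adjusted p = 0.86), and was not above background on every array there. The remaining receptors, Acvr1b and Bmpr1b, differed by 0.12 and 0.44 at their representative probe sets. The other Acvr1b probe set was lower in nulls and was not above background on every array. All 3 Bmpr1b probe sets were higher, also under both other scalings.

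**Figure D2:**
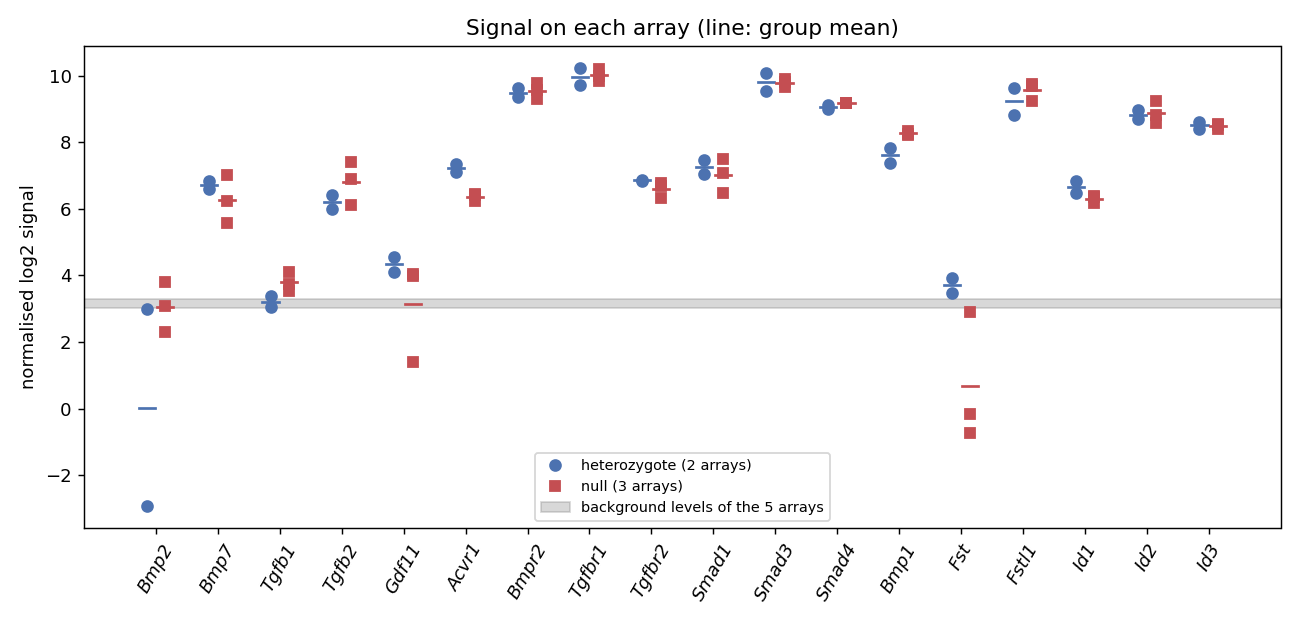
Normalised log2 signal on every array for the 18 members described array by array, with circles for the 2 heterozygote arrays, squares for the 3 null arrays, short lines for group means and a grey band for the background levels. The receptors Bmpr2 and Tgfbr1 and the Smads sit far above the band with overlapping or nearly touching groups, and Fst, Bmp2 and Gdf11 fall to or below it.

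Smads, the intracellular mediators, were as even as the receptors. Smad4, the mediator common to both branches, read 9.01 and 9.12 in heterozygotes and 9.17 on each of the 3 null arrays. The difference of 0.10 (SE 0.33, limma adjusted p = 0.999) became -0.05 with median centring, -0.10 without normalisation and -0.06 with the mean of its probe sets. Smad3, of the activin and TGF-beta branch, read 9.53 and 10.08 against 9.67, 9.89 and 9.80, so that all nulls lay between the heterozygotes, with a difference of -0.01. Smad1, of the BMP branch, had the largest Smad difference at -0.24 (SE 0.46), from 7.46 and 7.04 to 7.49, 7.07 and 6.47. Smad2 and Smad5 differed by -0.16 and -0.03. Other probe sets of these genes scattered around 0, with differences of 0.28 for Smad2, -0.38 and 0.08 for Smad5, 0.23 and -0.01 for Smad1 and -0.75 and 0.63 for Smad3. The inhibitory Smads, Smad6 and Smad7, which are themselves induced by the pathway, differed by 0.20 and -0.05.

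Ligand signals scattered more. Bmp7 read 6.85 and 6.61 in heterozygotes and 6.23, 5.56 and 7.02 in nulls at its representative probe set, with overlapping groups and a difference of -0.45 (SE 0.54, limma adjusted p = 0.999). All 3 Bmp7 probe sets were lower in the nulls on average, also with median centring and without normalisation. At 1435479_at the difference was -0.66. At 1432410_a_at the values were 5.32 and 5.47 against 3.92, 3.51 and 1.66, a difference of -2.36 (SE 0.78) with groups apart. That was the lowest adjusted p among the 96 member probe sets (limma adjusted p = 0.822 untrended and 0.953 trended).

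Tgfb2 went the other way at all of its probe sets. It read 6.42 and 6.00 in heterozygotes and 6.89, 6.11 and 7.40 in nulls, a difference of 0.59 (SE 0.52, limma adjusted p = 0.992) with overlapping groups. Its 4 probe sets had differences of 0.46 to 0.74, all positive under both other scalings. Tgfb1 read 3.38 and 3.05 against 3.76, 3.53 and 4.10, close to background, and its groups did not overlap (difference 0.58, SE 0.38, limma adjusted p = 0.991). Tgfb3 differed by -0.48 with overlapping groups.

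Several ligands were near or below background, and their differences rest on few arrays. Gdf11, a relative of myostatin that limits endocrine progenitors, read 4.10 and 4.56 in heterozygotes and 1.40, 3.99 and 4.04 in nulls. Its groups did not overlap, but without null replicate 1 the difference went from -1.19 to -0.31. Bmp2 read 2.98 and -2.93 in heterozygotes and 3.08, 2.31 and 3.80 in nulls. Both heterozygote arrays were below background, and so was 1 null array, so no fold or difference is given for Bmp2.

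Bmp4 was also singled out after its values were seen. It read 5.23 and 4.70 in heterozygotes and 4.78, 0.06 and 3.93 in nulls, where null 2 lay below background. The difference was -2.04 (SE 1.51, limma adjusted p = 0.991), or -1.0 with values raised to background. Bmp5 and Bmp6 were above background on all arrays and differed by 0.42 and 0.40. Inhba and Inhbb, which encode activin subunits, were each above background on 1 of 5 arrays, so no difference is given.

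Fst encodes follistatin, which binds activins. It read 3.48 and 3.93 in heterozygotes and 2.89, -0.16 and -0.73 in nulls. All 3 nulls were below background, so only a bound can be given, at least 1.52-fold lower than the heterozygotes (fitted limma adjusted p = 0.912 untrended and 0.976 trended). Its other probe set, 1421365_at, was below background on every array.

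Bmp1, a metalloprotease that cleaves chordin and procollagens, stood higher in nulls at its representative probe set. It read 7.84 and 7.38 in heterozygotes and 8.34, 8.25 and 8.22 in nulls, a difference of 0.66 (SE 0.36, limma adjusted p = 0.98 untrended and 0.976 trended). Of the other Bmp1 probe sets, 1427457_a_at differed by -0.40 with overlapping groups, and 1427458_at was above background on 1 array. The direction of Bmp1 therefore depended on the probe set.

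Fstl1, a secreted follistatin-like protein, read 8.83 and 9.64 in heterozygotes and 9.69, 9.76 and 9.23 in nulls, a difference of 0.32 (SE 0.44) that was -0.08 without heterozygote replicate 1. At its other probe set every null was higher, by 0.54 (SE 0.34). Bambi, a decoy receptor without kinase activity, and Grem1, which encodes gremlin, differed by 0.22 and 0.26 and were above background on all arrays. Chrd, which encodes chordin, and Bmper, a chordin-like BMP binding protein, differed by -0.78 and -1.56 and each lay below background on at least 1 null array. With values raised to background these became 0.089 and -0.59. Nog, which encodes noggin, was below background on every array.

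**Figure D3:**
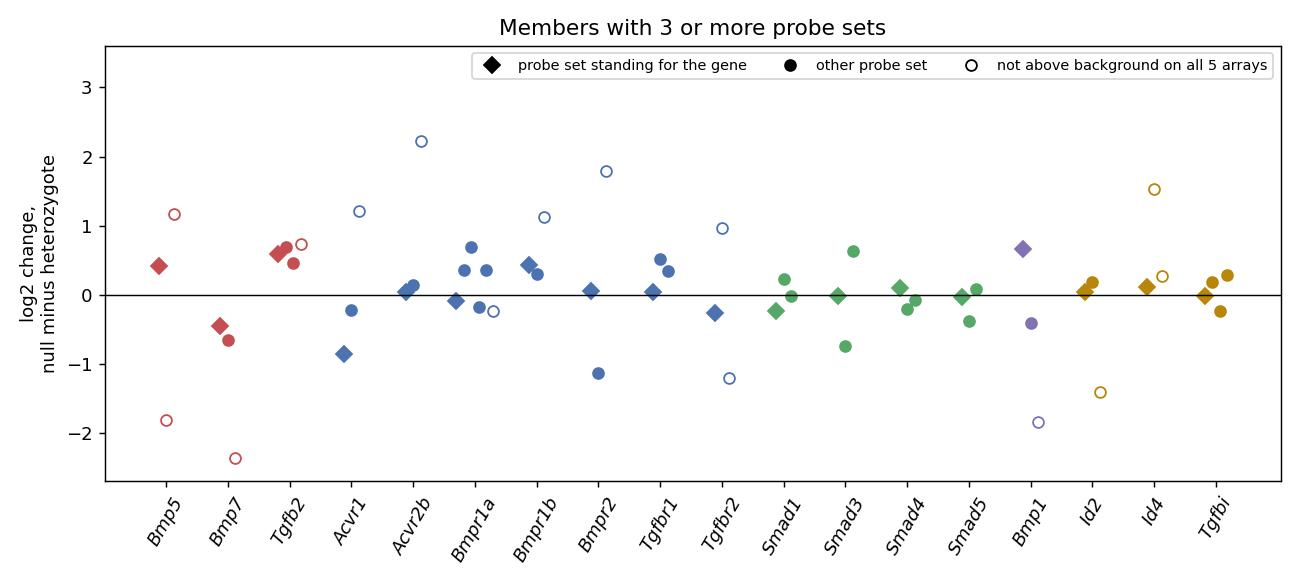
Log2 change of each probe set, null minus heterozygote, for the members with 3 or more probe sets. Diamonds stand for the gene elsewhere, circles are its other probe sets, and open symbols were not above background on all 5 arrays. Tgfb2 and Bmp7 keep 1 sign, whereas Acvr1, Bmpr2 and Bmp1 have probe sets on both sides of 0.

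Across the list, 30 members had more than 1 probe set. The probe sets of 7 members were all higher in nulls, those of 3 were all lower, and those of 20 members disagreed in direction. Among the 20 members with several probe sets above background on all arrays, these were all higher for 6, all lower for 4 and disagreed for 10. The 7 were Tgfb1, Tgfb2, Acvr2b, Bmpr1b, Tgfbr1, Fstl1 and Id4, of which Acvr2b and Tgfbr1 had probe sets of both signs with median centring, and these and Id4 without normalisation. Besides Bmp7, the members with all probe sets lower were Smad7 (-0.05 and -0.39) and Msx1 (-0.29 and -0.49), and these 3 kept their signs under both other scalings.

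Groups that did not overlap, with signal above background on all arrays of a genotype, were found for 8 members (18.6%), against 14.6% of all genes. In 5 the nulls were lower (Gdf11, Acvr1, Tgfbr2, Fst and Id1), and over all genes this held for 7.68%. In 3 the nulls were higher (Tgfb1, Smad4 and Bmp1), against 6.95% of all genes. With 2 against 3 arrays an exact permutation test of a gene cannot go below p = 0.1, so none is given. Over all 96 member probe sets the groups were apart in this way for 18 (18.8%), 9 in each direction, against 14.4% of all probe sets of a single gene.

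Other genes of the pathway, 59 measured of 68 listed, were not called either. Groups did not overlap, with signal above background on all arrays of a genotype, for 14 of the 59 (23.7%), against 14.6% of all genes. The untrended and trended limma fits called 0 of them, with 4 and 5 at an unadjusted p under 0.05, and 28 were higher and 31 lower in nulls. Of the 14, 4 also had a change of at least 1 in size, 6.78% of the 59 against 4.0% of all genes. Eng, which encodes the coreceptor endoglin, read 6.04 and 5.55 in heterozygotes and 3.73, 4.75 and 5.17 in nulls, a difference of -1.25 (limma adjusted p = 0.947). Hey1, a target of both BMP and Notch signalling, differed by -1.05 (adjusted p = 0.895), Chrdl1, a chordin-like antagonist, by -1.06 (0.983), and Amhr2, the receptor of anti-Mullerian hormone, by -1.84 (0.991). Amhr2 and Chrdl1 were above background on 3 arrays each.

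Markers of other cell types differed between the pools in which the ligands were measured. Of 25 mesenchyme markers 20 (80%) were higher in nulls, against 49.1% of all genes. Their median change was 0.55, and 11 were above background on all arrays. Their summed linear signal was 1905 to 2628 in heterozygotes and 2558 to 3028 in nulls. Only Twist1 of the 25 was below background on every array. The median of the ligands relative to each gene's mean was 0.39 and -0.41 on heterozygotes 1 and 2 and 0.19, -0.46 and 0.42 on nulls 1 to 3. On the same arrays it was 0.15, -0.41, 0.49, 0.09 and 0.37 for mesenchyme markers, and 0.50, -0.19, -0.14, -0.29 and 0.77 for 9 endothelium markers. The ligand median was lowest on heterozygote 2 and null 2, and the mesenchyme and endothelium medians were also lowest on these arrays. These 2 arrays had the lowest median linear signal (14.4 and 13.7) and the highest background levels (3.29 and 3.17). They also had the smallest shares of probe sets above background (60.9% and 63.0%). The endothelium sum was 250 to 376 in heterozygotes and 222 to 450 in nulls. Of 10 erythroid markers 9 were lower in nulls, with summed signal of 9563 to 12020 in heterozygotes and 7974 to 8875 in nulls. Of 6 neural crest and glia markers 4 were higher in nulls, with a median change of 0.87 and summed signal of 108 to 117 in heterozygotes and 172 to 226 in nulls. Erythroid, neural crest and glia sums did not overlap between genotypes. Leukocyte sums (99.1 to 248 and 103 to 169) and neuron sums (1423 to 1951 and 1600 to 2026) did. By gene, groups were apart, with signal above background on all arrays of a genotype, for 8 of 25 mesenchyme markers, all higher in nulls. This held for 6 of 10 erythroid markers, all lower, and 2 of 6 neural crest and glia markers, all higher. Over all genes it held for 14.6%. No marker of these lists passed either fit over all probe sets. The part of these cell types and array differences in the members' signals was not tested.

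**Figure D4:**
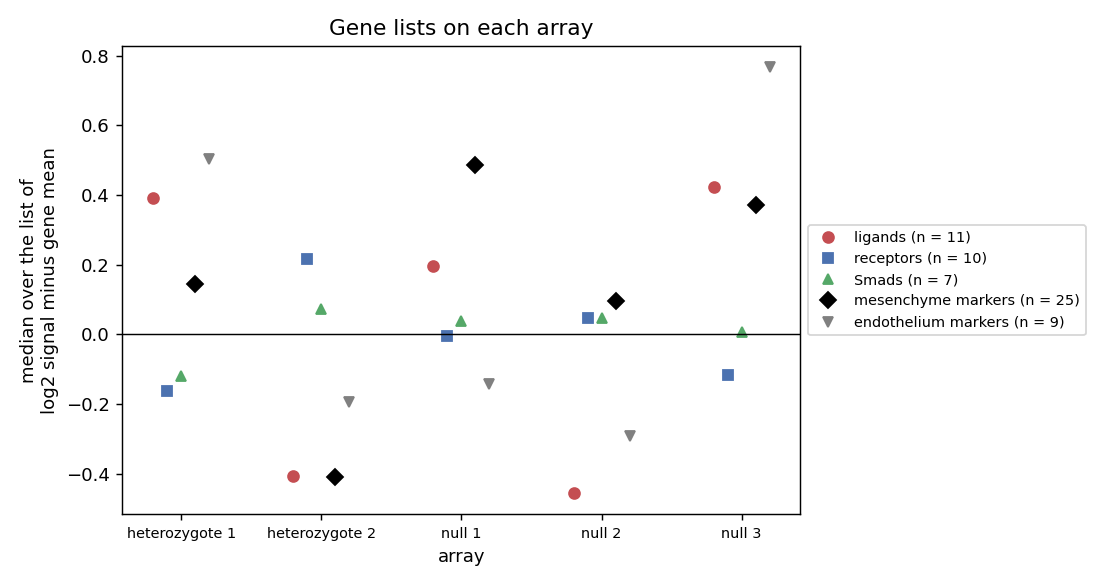
For each array, the median over a gene list of log2 signal minus that gene's mean over the 5 arrays, for ligands, receptors, Smads and markers of mesenchyme and endothelium. Ligands lie between -0.46 and 0.42, whereas Smads stay between -0.12 and 0.07.

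Receptor and Smad medians shared an order of arrays, highest on heterozygote 2 and null 2, where the ligand median was lowest. The receptor median was -0.16 and 0.22 on heterozygotes 1 and 2 and -0.005, 0.05 and -0.12 on nulls 1 to 3. For Smads it was -0.12, 0.07, 0.04, 0.05 and 0.005. In both roles the span between the heterozygotes was wider than the span among the nulls or between the genotype means.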

How the data were processed

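The deposited values are linear signal intensities of 45101 probe sets on each of 5 arrays. The submitters' processing notes list GCOS and RMA without versions or roles, and how background was removed is not given in those notes or the labels. Array medians differed, so log2 intensities were quantile normalised. After 64 control probe sets were left out, 45037 were compared with limma 3.58.1 (R 4.3.3), genotype as the sole term, two-sided, with Benjamini-Hochberg adjustment over all of them and a threshold of 0.05. This untrended fit was the planned main one, and a trended and robust eBayes fit was run beside it. Both were tested on simulated data. Background was the 95th percentile of the control probe sets named in the text, per array. For a fold marked "at least", values of the dimmer group under background were raised to it. No difference is given where a group is below background on every array and no such bound exists. The number of arrays limits the precision.

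Genes named came from the platform annotation, and all 43 gene IDs matched current RefSeq symbols. Array-by-array values are given for members with groups apart and above background in a genotype, for the 2 with the highest signal in each role, and for the largest change of each role among members above background on at least 2 arrays. Other pathway genes are named where groups were apart, above background in a genotype, with a change of at least 1. The members and lists were chosen with earlier results of these data known.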

Additional observations from a re-analysis of the deposited data

How the results depend on the processing

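There were 13 alternatives, and those that leave 1 heterozygote array are given for the size of change only. In the rest 0 members were called. There the lowest limma adjusted p of the 18 members given by array was 0.504, for Fst without null replicate 1. All Fst null values were below background. The trended fit called 8 probe sets of the whole table, and the untrended fit called 0 under the other settings with both heterozygotes. The median change of the members was -0.13 with median centring and -0.18 without normalisation, settings in which the median over all probe sets was -0.07 and -0.12. It ranged from -0.084 to 0.083 with 1 array left out, the extremes being without heterozygote replicates 1 and 2. The number of members higher in nulls was 13 with median centring, 12 without normalisation, and 17 to 25 with 1 array left out. Leaving out dim probe sets kept 39 of the 43. With the replicate block the median was 0.04 and 24 members were higher, and no call changed. Equal replicate numbers were not used as pairs, since deviations from group means correlated at -0.0167 and 0.008 between them.

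Of the 18 members, 8 kept their sign in every alternative (Bmp2, Bmp7, Tgfb1, Tgfb2, Gdf11, Tgfbr2, Fst and Id1), of which Bmp2 and Fst rest on a group below background. For those whose groups do not overlap, leaving out 1 array is bound to keep the sign, apart from the renormalisation. With median centring the change was -0.12 for Bmpr2, -0.12 for Tgfbr1, -0.053 for Smad4 and -0.11 for Id2. Without normalisation it was -0.17, -0.16, -0.10 and -0.16. With the mean of all probe sets of a gene it was 0.043 for Acvr1, -0.061 for Smad4, -0.53 for Bmp1 and -0.40 for Id2. The means of Acvr1, Bmp1 and Id2 each include a probe set not above background on every array. Both Acvr1 probe sets above background on all arrays were lower in nulls. With the replicate block Smad1 had 0.031. With 1 array left out the change ranged from -0.084 to 0.20 for Bmpr2, -0.22 to 0.30 for Tgfbr1, -0.48 to 0.031 for Smad1, -0.28 to 0.26 for Smad3, -0.081 to 0.73 for Fstl1, -0.13 to 0.20 for Id2 and -0.13 to 0.078 for Id3. Apart from these constructions the cause was not tested. Signal near background limits most ligands and antagonists.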
